A study of Mus musculus with 120 samples.

Results

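The genes described here are 9 feedback inhibitors of the mitogen-activated protein kinase (MAPK) and phosphoinositide 3-kinase (PI3K) pathways, taken by name from the 46078 gene identifiers counted: the dual-specificity phosphatase genes Dusp1, Dusp2, Dusp4, Dusp5, Dusp6 and Dusp10, the Sprouty genes Spry1 and Spry2, and Inpp5d. They were measured in 120 single group 2 innate lymphoid cells (ILC2), tissue lymphocytes that secrete interleukin (IL) 13 and IL-5, with 1 library of 3' RNA sequencing per cell. The ILC2 came from the pooled mesentery of 20 wildtype C57BL/6 mice, sorted as lineage-negative, c-Kit positive and Sca-1 positive, and were kept in culture with IL-2 before the experiment, so every group shares that culture. Stimulated cells received IL-2 and IL-33, and the secretion of 1 cytokine, the index, was watched live in each cell.

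Each index, IL-13 or IL-5, has 60 cells in 6 states, giving 12 groups. Pre-stimulation groups hold 5 cells, and the other groups hold 11 cells each: transition cells recovered 30, 60 or 90 min after the onset of secretion, activated cells in which secretion was seen, and silent cells in which it was not. Sample titles carry dates, whose meaning is not stated. All pre-stimulation cells have the first title date of their index, while every other group also holds cells of a second date. Ratios against pre-stimulation therefore include cells of a date without pre-stimulation cells. The animal and culture behind each cell are not labelled. Each group is therefore 1 sample, no test was made, and cells are not replicates of a state. Levels are reads summed over the cells of a group per 1000000 gene reads (CPM), with exact 95% Poisson intervals, and shares of cells carry exact 95% binomial intervals. For 0 reads, the limit quoted is what 3 reads, or 3 cells with a read, would give. All of these cover counting error only, not the spread between cells or cultures, and reads without molecular identifiers are not independent molecules.

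Cells had a median of 254001 gene reads, and 6 cells lay under 84667, the median divided by 3. In 3 of these, depth was 65 to 2152 reads, so a single read is a high CPM. Of 12 ILC2 markers, 12 had reads and 10 were read in at least 60 cells, while the 4 B cell, 4 natural killer cell and 4 adipocyte or stroma markers had 0 reads. Summed T cell markers, of which Cd4, Cd8a and Cd8b1 were at 0, reached 1128 and 1195 CPM in the 2 pre-stimulation groups against 7.84 to 562 CPM in the other 10. Summed mast cell markers, with 2 of 4 at 0, lay between 0 and 326 CPM, those of group 3 innate lymphoid cells, with Il17a at 0, between 0 and 344 CPM, and those of myeloid cells, with 3 of 5 at 0, between 0 and 38.3 CPM. Silent cells of the IL-13 index, at 562 CPM of T cell markers, stood above its activated cells at 46.0 CPM and above silent cells of the IL-5 index at 74.7 CPM. The part of these markers in any comparison was not tested. One pre-stimulation cell of the IL-13 index, replicate 1, had 4234 genes detected against 1612 to 2782 in the other 9, and values that rest on it are given as such.

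In the MAPK pathway, kinases pass a growth factor or cytokine signal to extracellular signal-regulated kinase (ERK), p38 and JNK, and dual-specificity phosphatases end it by removing the activating phosphates. Several of these phosphatases, and the Sprouty proteins that act upstream at Ras and Raf, are themselves induced by ERK and so close a negative feedback loop. Inpp5d encodes SHIP1, a phosphatase of blood cells that takes a phosphate from the lipid made by PI3K and thereby limits AKT signalling.

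Promoter sequences from RefSeq (GRCm38.p6, 250 bases before to 50 after the start of the gene) were found for 8 of the 9 genes. Dusp5 and Dusp1 are shown because both hold sites known from stimulus-driven genes. In each, capitals mark motifs found on either strand. The 4 motifs searched were chosen with the promoters already seen: the CArG box of serum response factor, the cAMP response element TGACGTCA, the AP-1 site TGANTCA and the ETS-type site GAGGAAGT. Among 32851 promoters of the same length these letters occur in 1.63%, 1.79%, 7.81% and 3.20%.
Dusp5, chr19:53528895-53529194, + strand: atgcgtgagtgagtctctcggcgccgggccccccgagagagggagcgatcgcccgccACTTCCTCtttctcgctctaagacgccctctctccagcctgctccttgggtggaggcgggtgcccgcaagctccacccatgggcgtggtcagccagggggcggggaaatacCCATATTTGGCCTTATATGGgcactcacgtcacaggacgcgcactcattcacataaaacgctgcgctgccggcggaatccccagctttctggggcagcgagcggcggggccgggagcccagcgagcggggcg
Dusp1, chr17:26508423-26508722, - strand: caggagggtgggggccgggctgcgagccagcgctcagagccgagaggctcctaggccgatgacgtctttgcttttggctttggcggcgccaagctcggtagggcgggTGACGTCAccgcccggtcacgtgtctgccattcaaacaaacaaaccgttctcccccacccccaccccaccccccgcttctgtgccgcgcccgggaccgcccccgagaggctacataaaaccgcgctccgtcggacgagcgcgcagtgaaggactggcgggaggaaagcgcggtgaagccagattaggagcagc
The Dusp5 promoter has 2 CArG boxes side by side, CCATATTTGG and CCTTATATGG, whose first bases lie 82 and 72 bases before the start, and ACTTCCTC, the ETS-type site read on the other strand. The Dusp1 promoter has 1 TGACGTCA. Inpp5d has 1 GAGGAAGT starting 20 bases before its start, and the promoters of Dusp2, Dusp6, Dusp10, Spry1 and Spry2 had no match to the 4 motifs. A match is a description of the letters, and no binding was measured.

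Inpp5d, Dusp10 and Dusp4 are described in the literature as targets of miR-155, a microRNA of activated lymphocytes made from the transcript of Mir155hg. The mature microRNA and the one matching site among the 9 genes are shown, with capitals marking the seed (bases 2 to 8 of the microRNA) and its complement, AGCATTA, in the target.
mmu-miR-155-5p, chr16:84714143-84714165, + strand: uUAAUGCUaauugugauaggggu
Inpp5d, chr1:87719827-87719855, + strand: tgtttttaaaaAGCATTAaagaaaaccat
The Inpp5d site begins 515 bases after the stop codon in a 3' untranslated region of 1184 bases (GENCODE vM21, the longest per gene). The other 8 genes, Dusp4 and Dusp10 included, had 0 matches in regions of 581 to 1190 bases. Over 20996 genes, 8.27% held the 7 letters.

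Reads of the members were unevenly spread. Inpp5d was read in 54 of 120 cells, Spry1 in 36 and Dusp5 in 24, whereas Dusp4 was read in 5 cells, Dusp1 and Dusp2 in 4 each, Dusp6 in 3, Dusp10 in 1 and Spry2 in 0. No cell held reads of more than 4 of the 9 genes: 34 cells held none, 50 held 1, 29 held 2, 5 held 3 and 2 held 4. Of the 13264 genes with a read in any cell, 85.8% were read in as few cells as Inpp5d or fewer, 77.3% in as few as Spry1, 67.9% in as few as Dusp5 and 34.7% in as few as Dusp4.

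**Figure D1:**
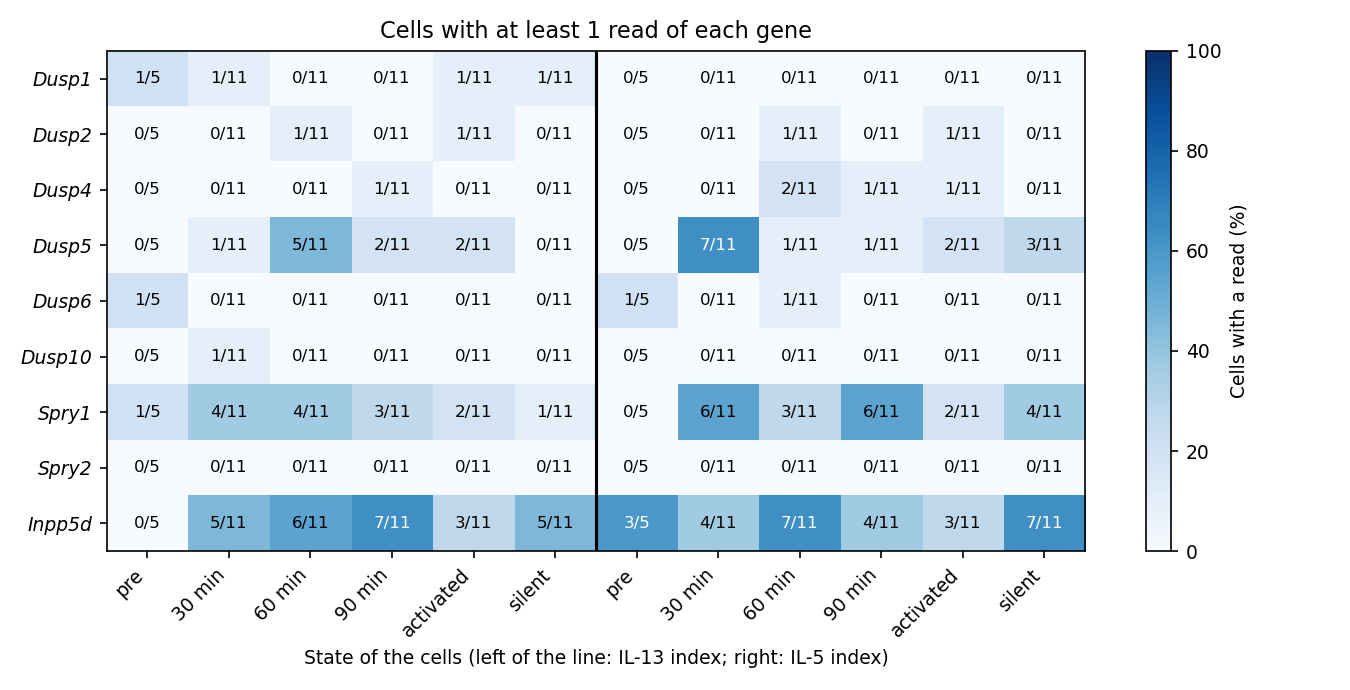
Cells with at least 1 read of each of the 9 genes (rows) in the 12 groups (columns; IL-13 index left of the line, IL-5 index right), coloured by the percent of cells and printed as cells with a read over cells. Inpp5d, Spry1 and Dusp5 have at least 1 cell with a read in most groups, with Dusp5 at 7 of 11 cells at 30 min in IL-5-index cells. The row of Spry2 is 0 throughout.

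Dusp5 encodes a nuclear phosphatase specific for ERK (ENSMUSG00000034765, GRCm38 chr19:53529109-53542431, + strand). It had 0 reads in the 10 pre-stimulation cells, which by that limit allows up to 1.38 CPM, or a read in up to 30% of such cells at this depth. In IL-5-index cells its highest group was 30 min after onset, at 81.7 CPM (72.5 to 91.6) with reads in 7 of 11 cells. These 7 cells held 381, 339, 127, 42.2, 3.79, 2.58 and 2.15 CPM, so 4 cells were high and 3 had 1 read each. Without replicate 9 the level was 46.4 CPM.

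At 60 min in IL-5-index cells Dusp5 was at 8.78 CPM, all from 1 cell, and at 90 min it was at 0.547 CPM, from 1 read. In IL-13-index cells the order differed: 20.2 CPM at 30 min, all from 1 cell at 186 CPM, then 54.9 CPM (46.9 to 63.8) at 60 min from 5 of 11 cells at 2.92 to 398 CPM (31.1 CPM without replicate 3), and 24.0 CPM at 90 min from 2 cells. The highest of these, 591 CPM, is 30 reads in a cell of 50723 gene reads, and the log2 ratio of 90 to 30 min was 0.25 with the shallow cells and -1.64 without them. The most cells with Dusp5 were thus at 60 min for one index and at 30 min for the other.

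Activated cells held little Dusp5 in either index, 5.64 CPM (3.34 to 8.91) and 6.97 CPM (4.55 to 10.2), from 2 of 11 cells each. Without 1 cell these became 2.39 CPM (replicate 2 left out) and 1.76 CPM (replicate 3). Silent cells held 0 reads in IL-13-index cells, which allows up to 1.13 CPM, and 20.2 CPM (15.5 to 25.9) in IL-5-index cells. Of the 3 silent cells with reads, 1 held 50 of the 62 reads and 1 had a single read among 2152. Without the cell of 50 reads, replicate 9, the level was 4.40 CPM.

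Pooled over both indexes, Dusp5 was read in 17 of 66 transition cells (25.8%, 15.8 to 38.0), 4 of 22 activated cells (18.2%, 5.19 to 40.3) and 3 of 22 silent cells (13.6%, 2.91 to 34.9), and these intervals overlap. With at least 5 reads required, the counts were 12, 4 and 2 cells. Summed over the cells, the levels were 36.0 CPM in transition, 6.35 CPM in activated and 10.9 CPM in silent cells.

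Dusp4, a nuclear phosphatase induced by ERK, had 137 reads in 5 cells. These were 1 cell at 167 CPM at 90 min in IL-13-index cells and, in IL-5-index cells, 2 cells at 55.6 and 131 CPM at 60 min, 1 at 133 CPM at 90 min and 1 activated cell at 71.5 CPM. None of the 10 pre-stimulation, 22 silent or 22 cells at 30 min had a read, which in 22 cells allows a share of up to 13.6%. Each positive cell held 16 to 41 reads.

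Dusp2, the ERK and p38 phosphatase known as PAC-1 and prominent in lymphocytes, had 49 reads in 4 cells. Its cells were at 60 min (147 CPM in IL-13-index cells and 14.0 CPM in IL-5-index cells) and activated (7.32 and 44.5 CPM). Dusp1, an immediate early phosphatase of p38, JNK and ERK, had 32 reads in 4 cells, all of the IL-13 index and all of its first title date. They were replicate 1 before stimulation with 1 read, 1 cell at 30 min with 7, 1 activated cell with 6 and 1 silent cell with 18. In the 60 cells of the IL-5 index 0 reads were found.

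Dusp6, the cytoplasmic ERK phosphatase, was read in 2 of 10 pre-stimulation cells and in 1 of 110 stimulated cells. The pre-stimulation cells held 56.9, 0, 0, 0 and 0 CPM in IL-13-index cells and 0, 388, 0, 0 and 0 CPM in IL-5-index cells, and the stimulated cell, at 60 min in IL-5-index cells, held 55.6 CPM. Pooled, the level was 61.1 CPM before stimulation and 0.798 CPM after it. Shares were 20% (2.52 to 55.6) and 0.909% (0.0230 to 4.96), and the intervals overlap. The cell of 56.9 CPM is replicate 1, the cell with 4234 genes. These 2 pre-stimulation cells also had the most Cd3g, a T cell receptor complex gene, at 4034 and 3643 CPM against 0 to 1254 CPM in the other 8, while Cd3d and Cd3e were at 0 in all 10. The part of this in the Dusp6 values was not tested.

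In IL-5-index cells Dusp6 was at least 116-fold lower at 30 min than before stimulation (0 against 119 reads, the 30 min group set to 3 reads). On leaving out the cell of 388 CPM both groups had 0 reads. The high value therefore stood in 1 of 5 cells and not in the group. Dusp10, which acts on p38 and JNK, had 15 reads, all in 1 cell at 30 min in IL-13-index cells (90.0 CPM). That cell also held Dusp1 and Spry1.

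Spry1, a membrane-bound inhibitor of Ras and ERK signalling (ENSMUSG00000037211, chr3:37639947-37644598, + strand), was read in 1 of 10 pre-stimulation cells, with 6 reads in replicate 1 of the IL-13 index. The IL-13 pre-stimulation cells were at 24.4, 0, 0, 0 and 0 CPM, and the 5 of the IL-5 index were at 0. In transition it was read in 26 of 66 cells (39.4%, 27.6 to 52.2), and with at least 5 reads in 22.

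At 30, 60 and 90 min Spry1 was at 38.1, 67.9 and 17.4 CPM in IL-13-index cells and at 90.7, 35.4 and 91.3 CPM in IL-5-index cells. Reads came from 4, 4 and 3 of 11 cells and from 6, 3 and 6 of 11 cells. The highest cell of the whole set was at 521 CPM, at 30 min in IL-5-index cells, and the highest of the IL-13 index was at 440 CPM at 60 min. One cell carried much of several groups: replicate 10 held 71.2% of the reads at 60 min in IL-13-index cells and replicate 10 held 79.3% at 60 min in IL-5-index cells. Without these cells the 60 min levels were 22.0 CPM and 7.99 CPM. In the same way, levels at 30 and 90 min became 16.8 CPM (replicate 7 left out) and 5.62 CPM (replicate 9) with the IL-13 index, and 46.3 CPM and 59.0 CPM (replicate 6 in each) with the IL-5 index. In IL-13-index cells leaving out replicate 10 at 60 min turned the log2 ratio of 60 to 30 min from 0.83 to -0.79. Without replicate 7 at 30 min that ratio was 2.02, and by title date it was -1.85 and 1.29.

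Activated cells had 1.88 CPM (0.690 to 4.09) of Spry1 in IL-13-index cells and 20.6 CPM (16.3 to 25.8) in IL-5-index cells, from 2 of 11 cells each. In silent cells the indexes stood further apart, at 2.27 CPM (0.832 to 4.93) from 1 cell and 72.4 CPM (63.2 to 82.6) from 4 cells. The 4 cells were at 301, 218, 104 and 51.8 CPM. Without the cell with the most reads, the activated levels were 0.339 CPM (replicate 1 left out) and 6.72 CPM (replicate 4), and the silent level of the IL-5 index was 42.1 CPM (replicate 2). Its relative Spry2 had 0 reads in all 120 cells, which allows up to 0.0967 CPM over 31016336 gene reads, or a share of up to 2.5% of cells.

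Inpp5d (ENSMUSG00000026288, chr1:87620312-87720507, + strand) was the member with reads in the most cells. It was read in 0 of 5 pre-stimulation cells of the IL-13 index and in 3 of 5 of the IL-5 index, at 0, 101, 3.78, 0 and 808 CPM. The 2 groups of untreated cells thus differed, 0 CPM against 169 CPM (147 to 194), with 173 of the 205 reads in 1 cell. Without that cell, replicate 5, the level was 32.1 CPM.

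After onset, Inpp5d in IL-13-index cells was at 115, 145 and 232 CPM at 30, 60 and 90 min, from 5, 6 and 7 of 11 cells. Replicate 7 held 63.1% of the reads at 60 min, and without it that level was 60.3 CPM, below 30 min. The 30 min level was 69.1 CPM without its own replicate 7. In IL-5-index cells it was at 49.0, 139 and 70.0 CPM from 4, 7 and 4 cells. Leaving out replicate 1, the cell of 797 CPM, took the 90 min level of the IL-5 index to 13.0 CPM, and leaving out replicate 7 took its 30 min level to 22.4 CPM. At 60 min, cells of the IL-13 index with reads ran from 3.96 to 825 CPM and those of the IL-5 index from 6.98 to 443 CPM.

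Activated cells had the fewest cells with Inpp5d among the stimulated states, 3 of 11 in each index, at 67.3 CPM (58.6 to 77.0) and 43.4 CPM (37.0 to 50.6). Silent cells had 131 CPM (118 to 146) from 5 cells and 75.4 CPM (65.9 to 85.7) from 7 cells. Without the cell with the most reads, the activated levels were 18.6 CPM (replicate 10 left out) and 18.2 CPM (replicate 3), and the silent level of the IL-13 index was 66.1 CPM (replicate 3). Pooled, 6 of 22 activated cells (27.3%, 10.7 to 50.2) and 12 of 22 silent cells (54.5%, 32.2 to 75.6) had a read, intervals that overlap, and with at least 5 reads 5 and 10 cells. Of the silent cells, 1 was the cell of 2152 reads, and in cells thinned to 100000 reads the counts were 6 of 22 and 10 of 21.

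**Figure D2:**
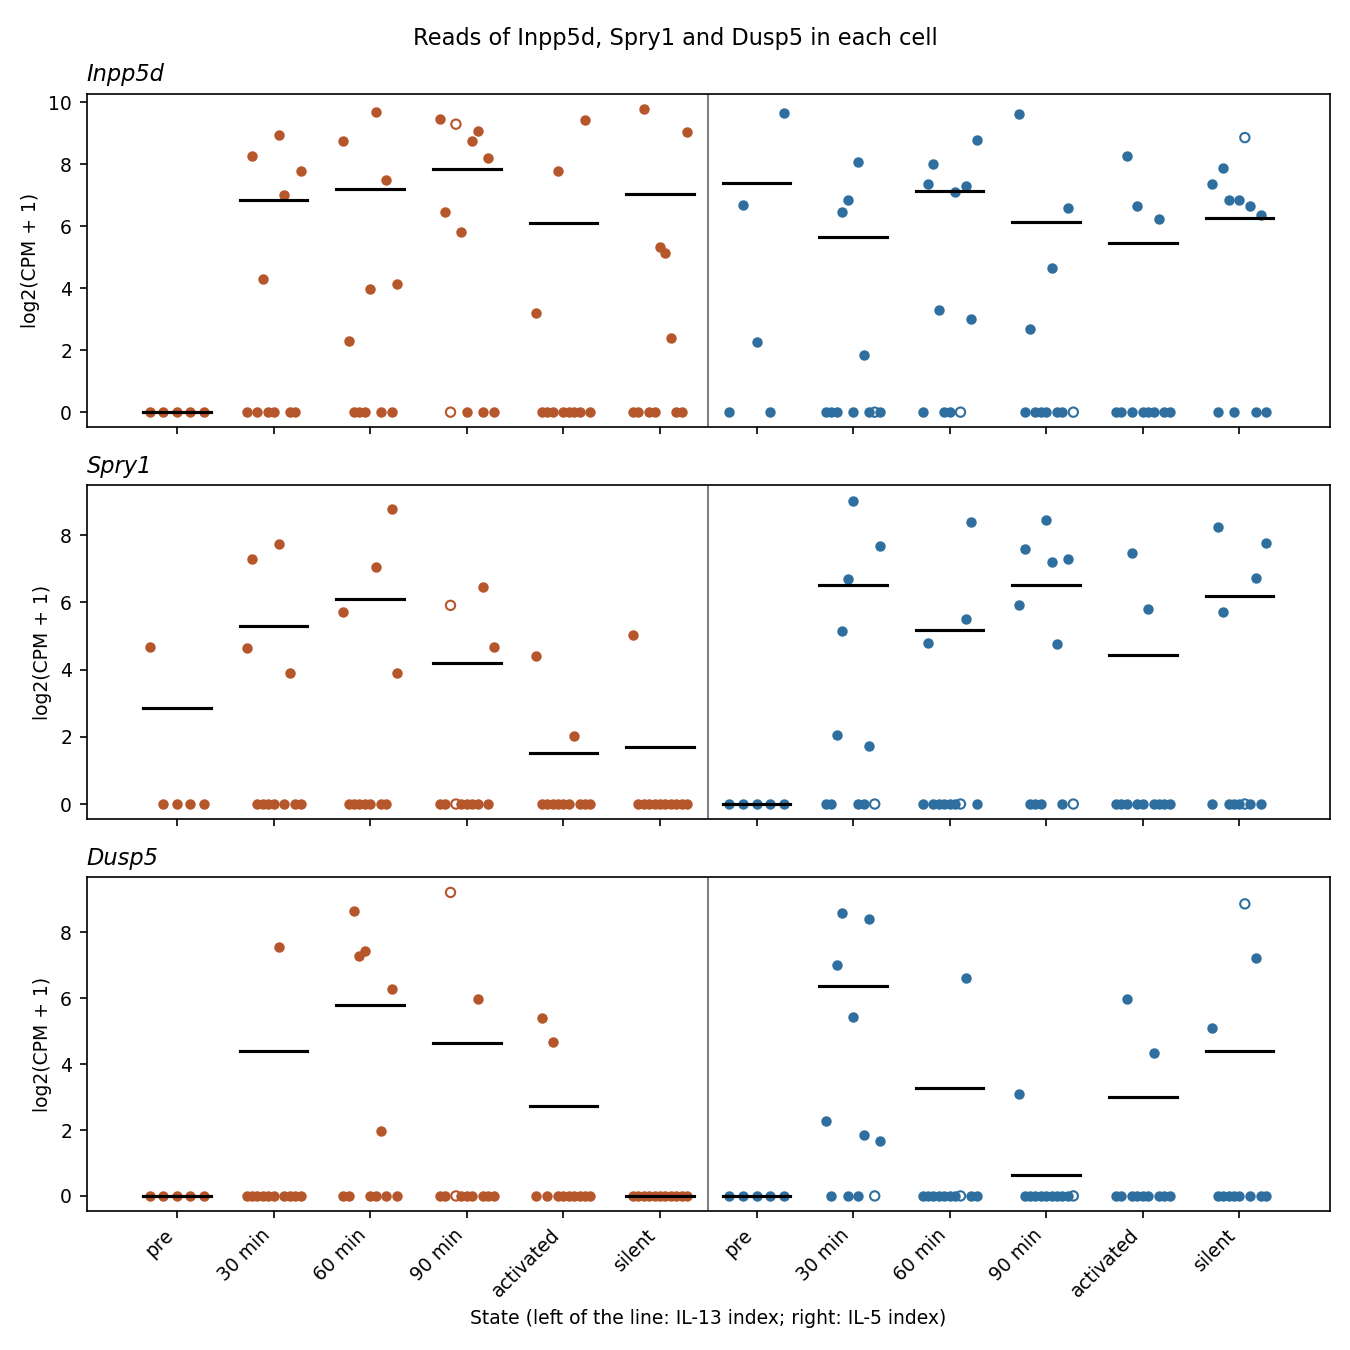
CPM of Inpp5d, Spry1 and Dusp5 in each cell, as log2(CPM + 1), by state and index, with black lines at the level of the summed reads and open circles for the 6 shallow cells. Cells at 0 stand beside high cells in the same group, and Dusp5 is at 0 in all 10 pre-stimulation cells and all 11 silent cells of the IL-13 index.

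Cells with reads of a member were deeper at the median. Among the 114 cells that were not shallow, those with Dusp5 reads had a median of 313564 gene reads against 246198 in those without, those with Spry1 289674 against 255551, and those with Inpp5d 270357 against 250841. After thinning to 100000 reads, which kept 113 cells, Dusp5 was read in 19, Spry1 in 31 and Inpp5d in 46. The thinned counts by state for Dusp5 were 13 of 60 transition, 4 of 22 activated and 2 of 21 silent cells.

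Some low read numbers stood beside high cells. Labels say that libraries were pooled in sets of 5 or 6, and each state on each title date has that many cells. Among cells under 5 reads of Dusp5, 4 of 19 (21.1%) had 1 to 4 reads where a second cell sharing state and date had at least 50, against 2 of 83 (2.41%) where none had. For Inpp5d the counts were 10 of 60 (16.7%) and 2 of 18 (11.1%), and for Spry1 1 of 28 (3.57%) and 4 of 61 (6.56%), so the 3 genes did not share a direction. Whether reads passed between libraries of a pool was not tested, and shares of cells are also given with a limit of 5 reads.

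Comparisons between states took a gene as tested where its mean over the 2 groups was at least 50 CPM, and as called where it was at least 4-fold apart, the fold of the study's methods. Of 10 comparisons, 3 had a called member: Inpp5d at 30 min and in silent cells against pre-stimulation in IL-13-index cells, and Spry1 at 30 min against activated, in IL-5-index cells. Inpp5d passed the filter in 8 of the 10 comparisons and Spry1 in 1, and the other 7 members in none. With 0 reads before stimulation in IL-13-index cells, Inpp5d passes the filter only through the other group, so those calls are a description, and activated cells at 67.3 CPM did not pass. The background share of all tested genes called was 32.6% (30 min), 36.6% (activated) and 31.4% (silent) against pre-stimulation in IL-13-index cells, and 32.3%, 37.0% and 32.2% in IL-5-index cells, so 4-fold differences from the 5 pre-stimulation cells were common. It was 19.7% and 8.58% for activated against silent, and 21.8% and 13.4% for 30 min against activated cells, in the IL-13 and IL-5 index.

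Against pre-stimulation in IL-13-index cells, Inpp5d was at least 36.9-fold higher at 30 min (307 against 0 reads, with 3 reads set for 0), 21.6-fold in activated cells (215 reads) and 42.3-fold in silent cells (348 reads), each a lower bound. On leaving out any 1 cell the log2 ratio ran from 4.47 to 5.41, 2.58 to 4.66 and 4.41 to 5.59. In IL-5-index cells it was lower in the same 3 comparisons, with log2 ratios of -1.79 (-2.09 to -1.49), -1.96 (-2.27 to -1.66) and -1.17 (-1.44 to -0.89). Without pre-stimulation replicate 5 they turned to 0.61, 0.44 and 1.23. With all 10 pre-stimulation cells as the base, the log2 ratios of the IL-13 index were 0.28, -0.48 and 0.48. On the first title date, which holds all pre-stimulation cells, the ratios were 4.39, 3.81 and 6.04 with the IL-13 index. With the IL-5 index they were -1.91, -0.94 and -0.86 on that date.

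Dusp5 and Spry1 lay below the filter against pre-stimulation and are given by their values. In IL-5-index cells at 30 min, Dusp5 was at least 33.0-fold higher (290 against 0 reads, 3 reads set for 0) and Spry1 at least 36.6-fold higher (322 against 0). Their log2 ratios stayed between 4.23 and 5.24 and between 4.22 and 5.38 with any single cell removed. On the first title date, which holds all pre-stimulation cells, they were 5.07 and 3.81. In IL-13-index cells Dusp5 at 30 min was at least 6.48-fold higher, but its 54 reads came from replicate 7, and without it both groups had 0 reads. Spry1 had a log2 ratio of 2.61 (1.44 to 4.09), with 1.43 to 3.19 on leaving out any 1 cell, the highest without pre-stimulation replicate 1, the cell that held all 6 reads of its group.

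Between 30 min and activated cells, Spry1 was higher at 30 min by 2.14 (1.77 to 2.51) in IL-5-index cells and by 4.34 (3.17 to 5.82) in IL-13-index cells on the log2 scale. In IL-5-index cells the second title date gave 3.65 and the first 0.030. In IL-13-index cells the dates gave 3.15 and 4.68. Leaving out any 1 cell left both positive, at 1.17 to 3.75 and 3.16 to 5.23. In this comparison Dusp5 was higher by 3.55 (2.97 to 4.19) in IL-5-index cells, with 2.72 and 4.85 by date. The IL-13 index gave 1.84 (1.05 to 2.70), but -2.17 without replicate 7 of the 30 min cells.

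Activated against silent cells, Inpp5d was lower, with a log2 ratio of -0.97 (-1.22 to -0.72) in IL-13-index cells and of -0.80 (-1.09 to -0.50) in IL-5-index cells. Leaving out single cells gave -2.82 to 0.03 (the highest without silent replicate 3) and -2.05 to -0.47. By title date the ratios were -2.23 and -0.17 with the IL-13 index and -0.08 and -2.43 with the IL-5 index, so most of each difference stood on 1 date. Spry1 was at -0.27 (-2.17 to 1.63) in IL-13-index cells, from 6 reads in each group, and at -1.81 (-2.20 to -1.43) in IL-5-index cells, with -3.43 to -1.03 on leaving out any 1 cell and -1.15 and -2.69 by date. For Dusp5 the indexes had opposite signs, at least 4.97-fold higher in IL-13-index cells (18 against 0 reads) and -1.54 (-2.26 to -0.86) in IL-5-index cells, where leaving out silent replicate 9 gave 0.66.

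**Figure D3:**
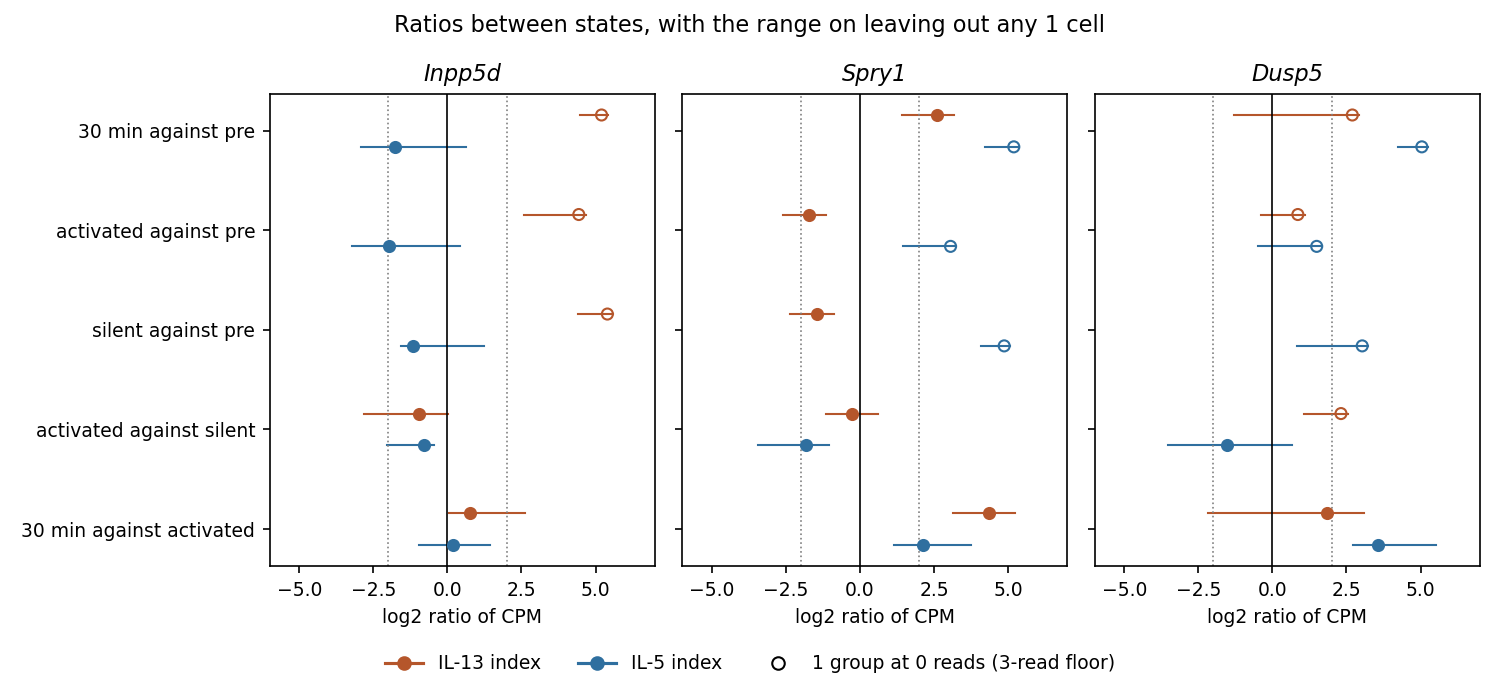
Log2 ratio of CPM in 5 comparisons for Inpp5d, Spry1 and Dusp5, by index. Lines give the range on leaving out any 1 cell, open circles have 1 group at 0 reads set to 3 reads, dotted lines mark 4-fold, and comparisons with 0 reads in both groups are left out. Inpp5d stands above 4 in IL-13-index cells and below 0 in IL-5-index cells against pre-stimulation cells, and the Spry1 lines for 30 min against activated lie above 0 in both.

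Across the course after onset, some ratios lay beyond counting error, which does not cover the spread between cells or dates. In IL-5-index cells Dusp5 at 60 min was lower than at 30 min: the log2 ratio was -3.22 (-3.81 to -2.67), with -6.40 to -2.40 on leaving out any 1 cell, and at 90 min it was -7.22 (-12.5 to -4.73) from 1 read taken as it is, or -5.64 with that read set to 3. In IL-13-index cells Dusp5 at 60 min was above 30 min by 1.44 (0.99 to 1.91), with 5.51 on the first date and -1.28 on the second. Spry1 in IL-5-index cells had ratios to 30 min of -1.36 (-1.67 to -1.05) at 60 min and 0.01 (-0.27 to 0.28) at 90 min. Over single cells left out these ran from -3.50 to -0.39 and from -0.62 to 0.98. Inpp5d at 90 min was higher than at 30 min by 1.01 (0.79 to 1.24) in IL-13-index cells, with 0.74 to 1.75 on leaving out any 1 cell. The IL-5 index gave 0.51 (0.17 to 0.85), but -1.92 without the 797 CPM cell and -1.29 on the second date. Summed mast cell markers were at 0 CPM at 30 min in both indexes and at 326 and 241 CPM at 90 min, and their part in this was not tested.

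Side by side, the indexes stood far apart in silent cells for Spry1 and Dusp5. Spry1 in IL-5-index cells was 31.9 times its IL-13 level in silent cells (72.4 against 2.27 CPM), with a log2 ratio of 5.00 (3.85 to 6.46) and 4.22 to 5.89 with any single cell removed. Silent Dusp5 was at least 17.8-fold higher in IL-5-index cells (62 against 0 reads), with 1.96 to 4.36 on leaving out any 1 cell. Beside these values, the cytokine gene Il13 was at 627 CPM in 9 of 11 silent cells of the IL-5 index, with 47.1% of its reads in replicate 6. In the IL-13 index Il13 was at 4.16 CPM in 1 of 11 silent cells. Il5 was read in 10 of 11 silent cells of each index. Its levels were 484 CPM (IL-5 index, 77.7% of reads in replicate 6) and 204 CPM (IL-13 index), with median cells at 63.6 and 66.5 CPM. Summed T cell markers were at 562 CPM in silent IL-13-index cells and 74.7 CPM in silent IL-5-index cells. What part any of these has was not tested. For Dusp5 the log2 ratio of the IL-5 to the IL-13 index was 2.02 at 30 min, but -2.64 at 60 min and -3.87 at 90 min. At 60 min Inpp5d had a log2 ratio of -0.06 (-0.25 to 0.13), with -0.43 to 1.21 over single cells left out. In the other states its ratio was 5.76 before stimulation, -1.23 at 30 min, -1.73 at 90 min, -0.63 in activated and -0.80 in silent cells. Groups under 3 reads were set to 3 in these ratios. The indexes carry different title dates, so index and date cannot be told apart.

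In the order of the 12 levels, Inpp5d ran from 232 CPM at 90 min in IL-13-index cells down to 0 before stimulation in IL-13-index cells, Spry1 from 91.3 CPM at 90 min in IL-5-index cells to 0 before stimulation in IL-5-index cells, and Dusp5 from 81.7 CPM at 30 min in IL-5-index cells to 0 in 3 groups. Of 11 pairs of neighbours, the ranges on leaving out any 1 cell met in 10 for Inpp5d, 10 for Spry1 and 9 for Dusp5, so most neighbours did not differ beyond the weight of 1 cell.

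Mir155hg, the host transcript of miR-155, had 0 reads in the 10 pre-stimulation cells and was read in 38 of 66 transition, 15 of 22 activated and 4 of 22 silent cells. With at least 5 reads it was read in 22, 13 and 4 of these cells. In IL-13-index cells it was at 384, 282 and 82.3 CPM at 30, 60 and 90 min, 99.9 CPM in activated and 0 in silent cells. The order of 30 and 60 min rested on 1 cell, replicate 5 at 3020 CPM, which held 64.5% of the 30 min reads: without it the log2 ratio of 60 to 30 min went from -0.44 to 0.92. Without that cell the log2 ratio of 90 to 30 min went from -2.22 to -0.85, and by title date it was -2.04 and 0.55. In IL-5-index cells Mir155hg was at 93.5, 68.8, 49.7, 147 and 215 CPM in the same order. Single cells held 62.1% of its reads at 60 min (replicate 7), 50.5% at 90 min (replicate 3) and 49.1% in activated cells (replicate 10). The log2 ratio of 60 to 30 min was -0.44 there, with -1.47 to 0.10 on leaving out any 1 cell. Over the 12 groups the Pearson r of log2(CPM + 1) with Mir155hg was 0.83 for Dusp5, 0.73 for Spry1 and 0.37 for Inpp5d, a description over groups that share libraries between genes. Dusp5 and Mir155hg were both at 0 in both pre-stimulation groups and in silent IL-13-index cells. These groups weigh on that r, and no r without them was taken.

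Among the 114 cells that were not shallow, Dusp5 was read in 19 of 56 cells with Mir155hg (33.9%) and in 3 of 58 without (5.17%). For Spry1 the counts were 21 and 14 cells (37.5% and 24.1%), and for Inpp5d 26 and 26 (46.4% and 44.8%). Median depths were 268253 and 258692 gene reads. With at least 5 reads of both genes the Dusp5 shares were 8 of 38 cells (21.1%) and 9 of 76 (11.8%), and within transition cells 4 of 21 (19.0%) and 7 of 40 (17.5%), so the gap was smaller at this limit. For Spry1 the order turned at this limit, 23.7% with Mir155hg and 28.9% without, and in transition cells 23.8% and 42.5%. Inpp5d was at 34.2% and 36.8%, and in transition cells at 28.6% and 45.0%.

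**Figure D4:**
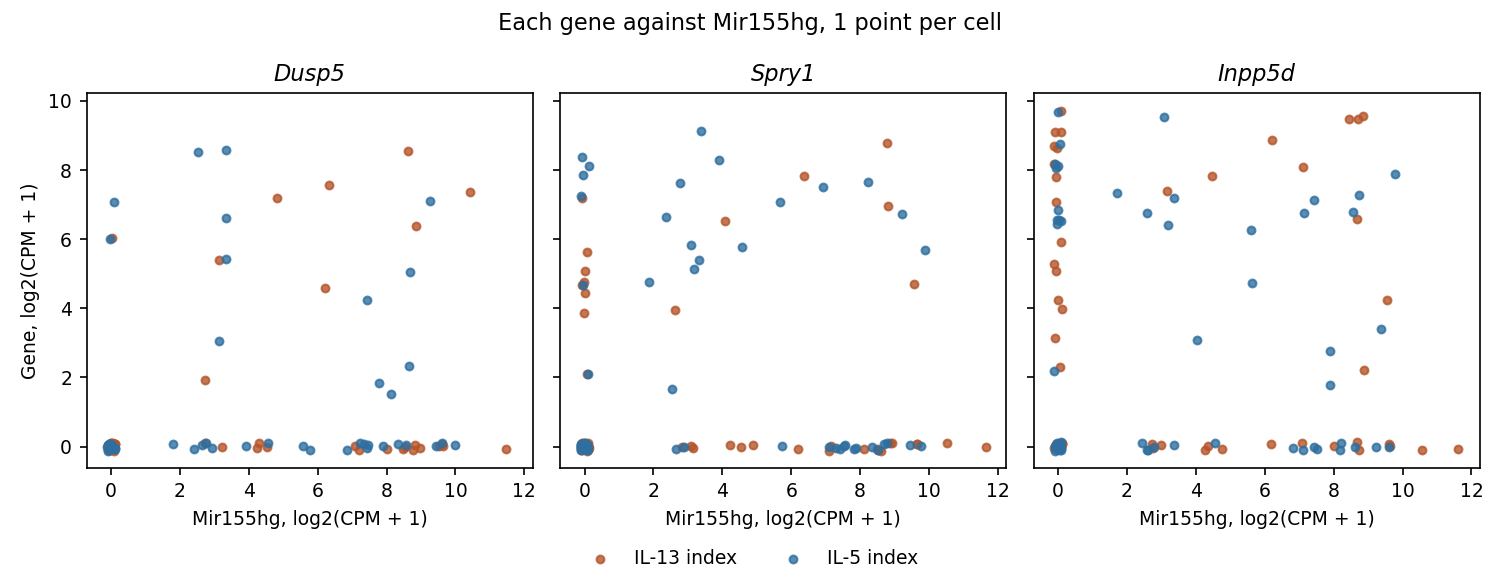
Log2(CPM + 1) of Dusp5, Spry1 and Inpp5d (vertical) against Mir155hg (horizontal) in the 114 cells that were not shallow, 1 point per cell with a small displacement. Of the 22 cells with Dusp5 reads, 19 also held Mir155hg reads, while the 52 cells with Inpp5d split evenly, 26 and 26.

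Dusp5 and Spry1 were read together in 10 of the 114 cells, which is 45.5% of the 22 with Dusp5 against 27.2% of the 92 without. In transition cells the shares were 56.2% and 35.6%, and with at least 5 reads 45.5% and 34.0%. Dusp5 and Inpp5d shared 8 cells, and Inpp5d was read in 36.4% of cells with Dusp5 and 47.8% of those without, or 35.3% and 36.1% with at least 5 reads of both.

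The genes with the pattern most like a member over the 12 groups, among up to 2267 genes, were Arpp19, Cops4 and Bcl2l1 for Dusp5 (Pearson r 0.89, 0.86 and 0.85), Hmgcs1, Cops4 and Baiap2 for Spry1 (0.87, 0.86 and 0.85), and Arid4b, Chic2 and Eif1a for Inpp5d (0.95, 0.94 and 0.94). With the mean of the cells' log2(CPM + 1) in place of summed reads, Hmgcs1 stayed first for Spry1 (0.83), while Arpp19 and Arid4b had r of 0.27. The 3 genes nearest Inpp5d were at 0 CPM in their lowest group.

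Of 13 early target genes of ERK, 1 of 7 lists of other genes of these pathways chosen by role, 4 passed the filter at 30 min against pre-stimulation in each index. At least 4-fold higher were 3 with the IL-13 index and 2 with the IL-5 index, beside 15.6% and 15.2% of all tested genes, and 0 were lower. Genes near 0 before stimulation pass the filter only when the 30 min group is high, so these counts are a description of the genes named. The growth response factor Egr2 was at 220 CPM in IL-13-index cells against 0 before stimulation, in 10 of 11 cells. Junb, an AP-1 subunit, was at 655 against 25.9 CPM, and in IL-5-index cells at 315 against 42.1 CPM.

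Most other negative regulators were also sparse. Of 17 further MAPK phosphatase genes 14 had reads, of 17 Ras and ERK inhibitors 14 and of 17 PI3K inhibitors 16, with a median of 6, 4 and 7 cells per gene beside 4 for the 9 members. The phosphatase list holds Dusp11, named for its family but known as an RNA phosphatase, which was its most widely read gene (59 of 120 cells), so its counts below include a gene that does not act on MAPK. Among the inhibitors the gene with the most cells was Inpp4b, a phosphatase of the PI3K pathway, read in 76 of 120 cells. It was at 560 CPM before stimulation in IL-5-index cells, in 3 of 5 cells, and at 286 CPM at 30 min, 78.2 CPM in activated and 123 CPM in silent cells. With the IL-13 index these levels were 207, 332, 129 and 63.1 CPM. At 30 min against pre-stimulation, the tested genes higher and lower were 0 and 0 of 1 phosphatase, 0 and 1 of 2 Ras inhibitors and 0 and 1 of 3 PI3K inhibitors in IL-13-index cells. The IL-5 index gave 0 and 1 of 2, none tested, and 0 and 0 of 1. Summed over the 10 comparisons, which share groups, 2 of 19, 1 of 9 and 1 of 16 tested ratios were higher and 5, 3 and 5 lower. Over all tested genes, 2.65 to 17.1% were higher and 4.28 to 22.4% lower in single comparisons. Among them Ptpn7, a tyrosine phosphatase of ERK and p38 in lymphocytes, was at 360 CPM before stimulation in IL-5-index cells, in 4 of 5 cells, and at 24.5, 11.3 and 7.18 CPM at 30 min, in activated and in silent cells. With the IL-13 index it was at 42.5 CPM before stimulation, 56.4 CPM at 90 min, 42.7 CPM in silent cells and 0 at 30 min and in activated cells. Synj1, an inositol phosphatase, was at 112 CPM before stimulation in IL-13-index cells and at 1.87 CPM at 30 min. Dusp16, a phosphatase of JNK and p38, was at 145 CPM in silent IL-13-index cells, from 3 cells, 46.3 CPM at 30 min and 0 in its other states, and had 0 reads in all 6 states of the IL-5 index.

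The kinases themselves were read in more cells. Map2k3, the kinase that activates p38, was read in 103 of 120 cells and was at 932 CPM at 30 min against 201 CPM in activated IL-13-index cells, and at 546 against 70.1 CPM before stimulation in IL-5-index cells. The same contrasts in the other index were under 4-fold, 546 against 277 CPM in activated IL-5-index cells and 932 against 283 CPM before stimulation in IL-13-index cells. Of 26 genes of the MAPK cascade, 25 had reads, and over the 10 comparisons 8 of 60 tested ratios were higher and 5 lower. For 18 genes of the PI3K cascade these were 3 of 22 and 8, for 12 receptor and adaptor genes of IL-33 and IL-2 6 of 67 and 8, and for 13 early ERK targets 11 of 35 and 0, to be read beside the shares of all tested genes above.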

How the data were processed

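Single-cell 3' libraries (SMART-Seq v4 3' DE) of 120 mouse ILC2 were analysed. The authors deposited unnormalized counts of reads per gene, made by aligning reads to GRCm38 with TopHat (TopHat2 in the submitters' processing notes) and tallying with HTSeq. Strand setting and annotation release are not given in the sources used here. Reads of the members, Dusp5 and Spry1 included, therefore cannot be told from those of any antisense gene that overlaps them. HTSeq's summary lines, 38.0% of all tallies, were left out. Symbols came from GENCODE vM21 by identifier, which named 45229 of 46078.

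Groups came from source names and titles. Counts were summed over cells, scaled to 1000000 gene reads (CPM), and compared as log2 ratios with groups under 3 reads set to 3 and exact Clopper-Pearson counting intervals. No test was possible with 1 sample a group. The 9 members, the 7 pathway lists and the marker lists were chosen with earlier results of these data known. Besides the members, named genes were Mir155hg, Il13, Il5, up to 3 called genes per list and comparison that kept their direction on leaving out any 1 cell and with the mean of the cells' CPM, and the 3 genes most correlated with a member of at least 10 CPM. Not all genes that rule allows are described.

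As alternatives, group levels were taken as the mean over cells of each cell's CPM, and with TMM (edgeR 4.0.16) and DESeq2 1.42.0 factors in R 4.3.3, other folds and filters, shallow cells left out, single title dates, pooled pre-stimulation cells, thinning to 100000 reads, a limit of 5 reads, and each cell left out. Python 3.11.15 with numpy 2.4.6, scipy 1.17.1 and pandas 2.3.3 was used. The ratio measure was tested on simulated data.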

Additional observations from a re-analysis of the deposited data

Results flagged for a closer look

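Among pre-stimulation cells, 5 values lay far from the other 4 cells of their group, of 5 groups of 5 cells with a read of a member. They were 4.06 CPM of Dusp1, 56.9 CPM of Dusp6 and 24.4 CPM of Spry1, all in replicate 1 of the IL-13 index, 388 CPM of Dusp6 in replicate 2 of the IL-5 index and 808 CPM of Inpp5d in replicate 5 of the IL-5 index. The criterion marks about 1 group in 20 by chance in measures without zeros, and a gene read in a single cell of 5 always meets it.

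Inpp5d had ratios of opposite sign in the indexes. At 30 min against pre-stimulation the log2 ratio was 5.20 with the IL-13 index but -1.79 with the IL-5 index, and in silent cells 5.40 and -1.17. The difference was not tested.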

How the results depend on the processing

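Each count below is the number of the 9 genes at least 4-fold apart. The background shares of all tested genes, given above, hold only for the main filter and fold with all cells. No such share is given for the alternatives in this paragraph and the next. Counts under those alternatives therefore cannot be compared with what other genes would give, and they describe the members only. With no filter on low counts, which lets the sparse genes in, the counts in IL-13-index cells became 4 (30 min against pre-stimulation), 2 (activated against pre-stimulation), 2 (silent against pre-stimulation), 1 (activated against silent) and 2 (30 min against activated), from 1, 0, 1, 0 and 0. In IL-5-index cells they became 3, 2, 3, 1 and 4, from 0, 0, 0, 0 and 1, in that order. A filter at a mean of 10 CPM gave 3, 1 and 1 for 30 min and activated against pre-stimulation and 30 min against activated with the IL-13 index, and 3, 2, 3 and 2 for the IL-5 index without activated against silent. The mean of the cells' own CPM gave 1, 1 and 0 for 30 min and activated against pre-stimulation and 30 min against activated with the IL-5 index, and 2-fold in place of 4-fold gave 1 for each comparison with its pre-stimulation cells. The first title date alone gave 0 for 30 min against pre-stimulation and 1 for activated against silent with the IL-13 index, and 0 for 30 min against activated with the IL-5 index. Pre-stimulation cells of both indexes pooled gave 0 for 30 min and for silent cells with the IL-13 index.

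With any single cell removed the counts ran from 0 to 1 for 30 min and silent against pre-stimulation, activated against silent and 30 min against activated with IL-13 indexing. With the IL-5 index they ran from 0 to 2 for 30 min and activated against pre-stimulation and for 30 min against activated, and from 0 to 1 for silent against pre-stimulation and activated against silent. Activated against pre-stimulation with the IL-13 index stayed at 0.

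Of 51 log2 ratios of members, tested or not, 29 changed sign under at least 1 alternative: 19 on leaving out a single cell, 9 on the first title date, 3 on the second, 3 with pooled pre-stimulation cells, 5 on the log2(CPM + 1) scale, 2 with the mean of the cells' CPM and 0 with TMM or DESeq2 factors. Several kept reads in both groups: without pre-stimulation replicate 5 Inpp5d with the IL-5 index went from -1.79, -1.96 and -1.17 to 0.61, 0.44 and 1.23 (30 min, activated and silent), and without silent replicate 9 Dusp5, activated against silent with the IL-5 index, went from -1.54 to 0.66. Ratios of at least 4-fold that changed sign follow. For Dusp5 at 30 min against pre-stimulation with the IL-13 index the first date gave -0.042, and leaving out any 1 cell gave -1.31 to 2.91, the lowest without replicate 7 of the 30 min cells. Inpp5d in activated cells of that index became -0.48 against pooled pre-stimulation cells. Dusp5, activated against silent in the same index, became -0.16 on the second date. Dusp4, activated against silent with the IL-5 index, became -0.57 on the second date, and leaving out any 1 cell gave -0.19 to 2.32, the lowest without activated replicate 2. For 30 min against activated with the IL-5 index Dusp2 became 0.030 on the first date and Dusp4 became 0.10 on the second. In those of Dusp2, Dusp4 and Dusp5 in this list the gene is at 0 reads in both groups once the cells that held it are gone, so the sign is that of the floor. Where a cause is not named here, it was not tested.

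Scaling by TMM moved the median log2 ratio of all tested genes against pre-stimulation from -0.23 to 0.04, -0.15 to 0.15 and 0.05 to 0.12 with the IL-13 index and from -0.19 to 0.26, -0.32 to 0.32 and -0.16 to 0.32 with the IL-5 index, for 30 min, activated and silent cells. The split of calls moved with it: with the IL-5 index 403 genes were higher and 619 lower in activated cells, and 545 and 381 with TMM.

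No paired analysis was made, because no test was made and replicate numbers pair no cell of one state with a cell of another. The numbers name cells and follow the title date within a group. Detection limits all statements: in a cell of median depth 3 reads are 11.8 CPM, so a gene at 0 in a cell is not shown to be absent, and with 5 pre-stimulation cells per index 1 cell can set the level of a group. The co-detection with at least 5 reads of both genes, and the values without pre-stimulation replicate 1 of the IL-13 index, were chosen after seeing the data.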

Other observations

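The 2 cells that held reads of 4 of the 9 genes were both at 60 min of the IL-5 index. Replicate 2 had 55.6 CPM of Dusp4, 55.6 CPM of Dusp6, 26.6 CPM of Spry1 and 164 CPM of Inpp5d in 413547 gene reads. Replicate 9 had 131 CPM of Dusp4, 96.0 CPM of Dusp5, 44.8 CPM of Spry1 and 157 CPM of Inpp5d in 312467 gene reads. Their Mir155hg was at 2.42 and 9.60 CPM. The Dusp5 and Dusp6 reads of that group came from these cells alone.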
